A study of Homo sapiens with 20 samples.

Results

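Ribosome biogenesis factors are the proteins that transcribe, modify, cut and assemble ribosomal RNA into ribosomal subunits. A set of 35 of them, taken as listed gene symbols and matched to Ensembl gene identifiers, was followed in 20 RNA-seq libraries of K562, an established human erythroleukemia line. Of the 35, 34 were among the 57736 gene identifiers of the drug experiment and 35 among the 53153 genes of the excision experiment, and all of these passed the filter on low counts. BOP1 had no matched identifier in the drug experiment and is not analysed there. The study asked what happens when super-silencers, repressive stretches of chromatin, are lost through inhibitors or by cutting them out. Each group held n = 2 libraries of total RNA with ribosomal RNA depleted.

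In the drug experiment cells received the EZH2 inhibitor GSK343 (5 uM) together with the REST inhibitor X5050 (100 uM) for 8 h, 24 h or 72 h, GSK343 alone for 72 h, X5050 alone for 72 h, or DMSO for 72 h. EZH2 is the histone methyltransferase of Polycomb repressive complex 2, and REST is a repressor of neuronal genes. DMSO was sampled at 72 h alone, so in the comparisons of 8 h and 24 h with it the drugs and the time in culture cannot be told apart. The same holds where 8 h, 24 h and 72 h of both drugs are compared with each other. In the excision experiment CRISPR was used to cut out silencer 1 in S1KO cells, silencer 2 in S2KO cells and the pair of them in DKO cells, and EV cells carried an empty vector. Nothing in the labels says that the 2 libraries of a group came from separate cultures, so the spread between them may be technical. All groups are 1 cell line in bulk culture, where fewer cells of a kind and less RNA per cell cannot be told apart.

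Ribosome production begins in the nucleolus, where RNA polymerase I transcribes a long precursor RNA. Small nucleolar ribonucleoproteins (snoRNPs) modify it, the small subunit processome folds and cuts its upstream part, and a separate set of factors matures the downstream part into the large subunit. Growing cells express these genes together, and the transcription factor MYC, which binds the E-box sequence CACGTG, is known to raise many of them. The set holds 6 genes of RNA polymerase I and its factors, 4 snoRNP core proteins, 2 nucleolar chaperones, 12 small subunit factors and 11 large subunit factors.

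RefSeq promoters (GRCh38.p14, 250 bases before to 50 after the start) were at hand for 29 of the 35 members. CACGTG, which reads the same on both strands, was present in 13 of the 29 (44.8%), against 8.77% of the 27305 genes with a promoter in the table, 30.4% of 79 other ribosome biogenesis factors and 6.35% of 63 ribosomal protein genes. CCGGAAG, on either strand, was present in 11 of 29 (37.9%), against 12.2% of all genes, 45.6% of the other factors and 34.9% of the ribosomal protein genes. CTCGCGA, on either strand, was present in 6 of 29 (20.7%), against 2.82%, 13.9% and 20.6% of the same 3 sets. Counted over all 35116 promoters, several of which can belong to 1 gene, the shares were 7.26%, 10.3% and 2.35% for the 3 motifs. A match is a description of the letters and not a binding site. In 12 of the 13 the E-box lay within 40 bases of the start site. The windows of 30 bases below show it in capitals, in 4 members that rose at 8 h of both drugs (LTV1, UTP20, GNL3 and WDR43) and in 4 that did not pass the test there (FBL, BYSL, PES1 and RRP9), since the same letters stand close to the start in both kinds. FBL, PES1 and RRP9 are on the minus strand and the others on the plus strand, and each is written 5′ to 3′ along its own gene.
LTV1 (chr6:143843354-143843383): gtcctggggctgCACGTGtggtgaggccta
UTP20 (chr12:101280083-101280112): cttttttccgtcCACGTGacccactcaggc
GNL3 (chr3:52686026-52686055): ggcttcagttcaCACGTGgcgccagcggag
WDR43 (chr2:28894658-28894687): cgcacggacgaaCACGTGgctgcagcgggg
FBL (chr19:39846356-39846385): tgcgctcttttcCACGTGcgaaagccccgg
BYSL (chr6:41921515-41921544): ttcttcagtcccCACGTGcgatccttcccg
PES1 (chr22:30591880-30591909): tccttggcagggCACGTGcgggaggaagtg
RRP9 (chr3:51941892-51941921): gggttcagctgcCACGTGagttctgcggcc
Of the 13 members with the E-box, 8 rose at 8 h with a median log2 difference of 0.49, and of the 16 without it 12 rose, with a median of 0.66. At 24 h 5 of 13 and 8 of 16 rose. Members with and without these letters were both among those that rose.

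The 250 bases before the start of LTV1, the member with the largest rise at 8 h, and of POLR1C, the member with the largest rise at 72 h, are shown with the other motifs in capitals. LTV1 holds CTCGCGA from base -91 and CCGGAAG, on the opposite strand, from base -57. POLR1C holds CTCGCGA from base -87 and CCGGAAG at -212, at -127 (opposite strand) and at -124, the last 2 overlapping, and no CACGTG in its window.
LTV1 (chr6:143843088-143843337): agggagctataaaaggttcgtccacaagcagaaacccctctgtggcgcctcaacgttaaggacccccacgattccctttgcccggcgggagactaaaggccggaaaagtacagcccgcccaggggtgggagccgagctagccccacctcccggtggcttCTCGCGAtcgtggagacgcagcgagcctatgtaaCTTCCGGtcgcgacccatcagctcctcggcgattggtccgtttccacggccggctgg
POLR1C (chr6:43516839-43517088): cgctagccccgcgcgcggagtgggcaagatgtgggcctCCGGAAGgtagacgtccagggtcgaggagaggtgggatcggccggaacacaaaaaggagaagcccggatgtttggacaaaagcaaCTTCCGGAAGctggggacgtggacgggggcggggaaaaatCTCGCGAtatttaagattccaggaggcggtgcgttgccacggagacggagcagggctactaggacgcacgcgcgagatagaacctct

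The drug libraries held 22925617 to 38177320 gene counts and the excision libraries 55913728 to 98507880 estimated counts. Values are CPM, a gene's counts scaled to library size with factors from the TMM method, a difference is a log2 fold change with its standard error, and a gene was called when its edgeR quasi-likelihood p, adjusted by Benjamini-Hochberg over all 19224 (drugs) or 21285 (excisions) genes tested, was under 0.05. A gene that rose or fell here is a called gene. Summed over 9 markers, K562 erythroid genes reached 1630 to 5980 CPM in the drug experiment and 2700 to 19700 CPM in the excisions. In the drug and excision libraries the sums were 16.6 to 59.4 and 4.63 to 24.3 CPM for 5 megakaryocytic markers, 26.3 to 63.4 and 15.1 to 66.9 CPM for 5 myeloid, 25.1 to 66.0 and 61.2 to 107 CPM for 3 epithelial, 2.52 to 21.8 and 1.2 to 129 CPM for 3 fibroblast, and 1.1 to 3.97 and 1.06 to 2.28 CPM for 4 lymphoid markers. EPCAM made up nearly all of the epithelial sum. PF4, GP9, MS4A1 and KRT5 were at or near 0 in every library. Reads that mapped to several places made up 10.8% to 13.3% in the libraries of 8 h and 24 h, 26.1% to 26.7% at 72 h of both drugs, and 19.0% to 20.8% with a single drug or DMSO. Whether this moved the values below was not tested. All comparisons with DMSO share its 2 libraries, and in 28 of 34 members DMSO replicate 1 lay below replicate 2 (median log2 -0.21).

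After 8 h of both drugs most ribosome biogenesis factors stood above DMSO. Of 34 members 22 rose and 1 fell, against 21.8% of all genes higher and 21.2% lower, and the median log2 difference was 0.51 against -0.01 over all genes. Rises covered every step from transcription of ribosomal RNA to assembly, and TCOF1 alone fell. The summed erythroid markers moved with the set, at 4970 and 5510 CPM at 8 h and 5590 and 5580 CPM at 24 h, against 2240 and 2410 CPM in DMSO. The summed megakaryocytic markers were at 25.2 and 26.4 CPM at 8 h and 53.5 and 59.0 CPM at 24 h, against 21.5 and 16.6 CPM in DMSO. The part of either in the results was not tested. The 22 rises were 5 of 6 polymerase I genes, 2 of 4 snoRNP proteins, 1 of 2 chaperones, 9 of 12 small subunit factors and 5 of 10 large subunit factors.

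**Figure D1:**
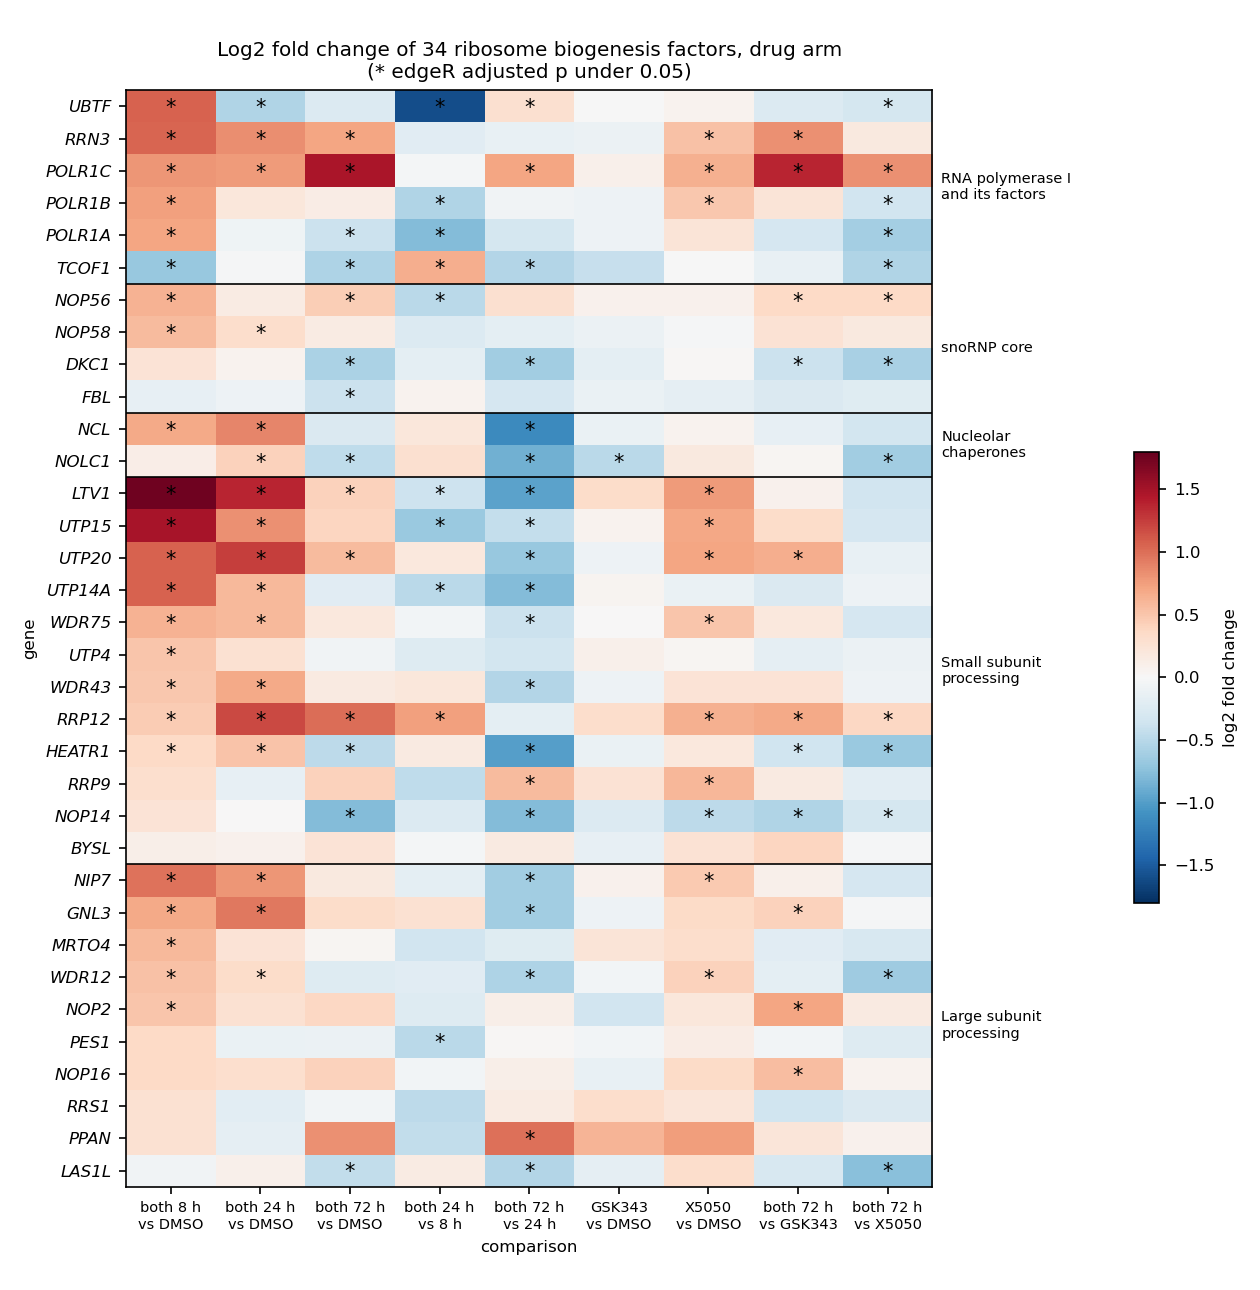
Log2 fold changes of the 34 members measured in the drug experiment (rows, grouped by role) in 9 comparisons (columns), with an asterisk where edgeR's adjusted p was under 0.05. The 8 h column holds 22 rises and 1 fall, and the column of 72 h against 24 h holds 4 rises and 16 falls.

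Among the genes of transcription, UBTF (ENSG00000108312), which binds ribosomal DNA and keeps it open, had 231 and 240 CPM at 8 h, against 116 and 109 CPM in DMSO. The groups were far apart (log2 1.06 ± 0.11, edgeR adjusted p = 2.82e-06). RRN3, which brings the polymerase to its promoter, had 87.5 and 87.8 CPM, against 34.9 and 49.9 CPM in DMSO (1.05 ± 0.16, 7.50e-05). Its reads are uncertain, since the genome holds pseudogene copies of RRN3. POLR1B, a large subunit of the enzyme's core, had 106 and 108 CPM, against 59.0 and 68.9 CPM (0.74 ± 0.12, 0.000121). POLR1C, a subunit shared with RNA polymerase III, was at 0.80 ± 0.13, and POLR1A, the catalytic subunit, at 0.71 ± 0.13, both called. TCOF1, which encodes the nucleolar protein treacle, had 101 and 111 CPM at 8 h, against 147 and 191 CPM in DMSO (-0.68 ± 0.14, 0.00111).

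The largest rise of all members at 8 h belonged to LTV1 (ENSG00000135521), a factor of the late small subunit whose promoter is shown above. LTV1 had 76.5 and 80.5 CPM, against 20.2 and 26.4 CPM in DMSO, a 3.37-fold difference (log2 1.75 ± 0.15, edgeR adjusted p = 4.37e-07). UTP15, a processome protein that joins the nascent transcript early, had 72.6 and 70.3 CPM, against 21.6 and 29.4 CPM (1.49 ± 0.16, 2.63e-06). UTP14A, whose yeast counterpart activates a processome helicase, had 53.8 and 53.4 CPM, against 24.4 and 27.1 CPM (1.06 ± 0.14, 2.29e-05). UTP14A has a retrocopy in the genome, so its reads are uncertain. UTP20, a large scaffold of the processome, had 76.6 and 75.2 CPM, against 33.2 and 39.4 CPM (1.06 ± 0.15). In all 4 genes both libraries of 8 h lay well above both of DMSO. WDR75, UTP4, WDR43, RRP12 and HEATR1 also rose, by 0.35 to 0.63, while RRP9, NOP14 and BYSL had 0.11 to 0.31 without a call.

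Of the large subunit factors 5 rose. NIP7, known in yeast for its part in large subunit maturation, had 82.7 and 86.0 CPM at 8 h, against 39.0 and 46.6 CPM in DMSO (log2 0.98 ± 0.15, edgeR adjusted p = 6.81e-05). GNL3, the nucleolar GTPase nucleostemin, had 124 and 137 CPM, against 69.8 and 92.2 CPM (0.68 ± 0.14, 0.000746). WDR12, which forms the PeBoW complex with PES1 and BOP1, had 117 and 123 CPM, against 78.3 and 88.7 CPM (0.53 ± 0.12, 0.00199). MRTO4, a placeholder for a stalk protein, rose by 0.59 ± 0.17 and NOP2, an RNA methyltransferase, by 0.49 ± 0.15. PES1, NOP16, RRS1, PPAN and LAS1L were not called (-0.06 to 0.36). Of the snoRNP proteins, NOP56 (0.63 ± 0.13, 0.000895) and NOP58 (0.57 ± 0.12, 0.00155), both of the box C/D particle that guides ribose methylation, rose, while its methyltransferase FBL had -0.15 and DKC1, the pseudouridine synthase of the other particle class, had 0.24. The chaperone NCL (nucleolin) had 444 and 455 CPM at 8 h, against 263 and 295 CPM in DMSO (0.69 ± 0.13, 0.000492).

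Of the 23 calls at 8 h, 17 stood with any library left out. MRTO4, NOP2, RRP12 and WDR43 were not called without DMSO replicate 1 (edgeR adjusted p = 0.0718, 0.119, 0.0903 and 0.115) or without replicate 2 of 8 h (0.0741, 0.112, 0.0975 and 0.051), MRTO4 and UTP4 not without DMSO replicate 2 (0.0826 and 0.0539), HEATR1 not without replicate 1 or 2 of 8 h (0.0733 and 0.0688), and WDR43 not without replicate 1 of 8 h (0.0522). With the trend over GC content removed, WDR75 (0.135), WDR12 (0.208), WDR43 (0.406), NOP58 (0.097), UTP4 (0.0519) and HEATR1 (0.759) were not called.

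At 24 h of both drugs LTV1, UTP20 and RRP12 were the small subunit factors furthest above DMSO, and both chaperones rose. Of 34 members 16 rose and 1 fell relative to DMSO, against 22% of all genes higher and 21.1% lower, with a median log2 difference of 0.29 against -0.02 over all genes. The 16 rises were 2 polymerase I genes, 1 snoRNP protein, 2 chaperones, 8 small subunit factors and 3 large subunit factors. LTV1 had 64.2 and 57.0 CPM at 24 h (1.38 ± 0.14, edgeR adjusted p = 1.94e-06 against DMSO). UTP20 (ENSG00000120800) had 91.0 and 81.8 CPM (1.25 ± 0.16, 1.04e-05). RRP12, whose yeast counterpart acts in export of the subunits, had 123 and 117 CPM at 24 h, against 48.4 and 56.7 CPM in DMSO (1.19 ± 0.14, 5.20e-06). UTP15, UTP14A, WDR43, WDR75 and HEATR1 rose by 0.51 to 0.83.

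GNL3 had 165 and 149 CPM at 24 h, against 69.8 and 92.2 CPM in DMSO (log2 0.95 ± 0.14, edgeR adjusted p = 3.98e-05), and NIP7 was at 0.80 ± 0.15 (0.000389). WDR12 was at 0.33 ± 0.12 (0.0356). NCL (ENSG00000115053) had 532 and 500 CPM, against 263 and 295 CPM (0.89 ± 0.13, 5.05e-05), and NOLC1, a chaperone of snoRNPs, 220 and 205 CPM, against 138 and 180 CPM (0.42 ± 0.15, 0.0349). NOP58 was the only called snoRNP protein (0.32 ± 0.12, 0.0472), and DESeq2 did not call it (DESeq2 adjusted p = 0.0566). Of the polymerase genes, POLR1C (0.76 ± 0.13, 0.000211) and RRN3 (0.84 ± 0.16, 0.000492) stood above DMSO and UBTF below it, with 82.0 and 73.3 CPM against 116 and 109 CPM (-0.54 ± 0.11, 0.00101). Of the 17 calls 13 stood with any library left out. NOLC1, NOP58 and WDR12 lost theirs without DMSO replicate 1 (0.272, 0.176 and 0.179), without replicate 1 of 24 h (0.174, 0.174 and 0.276) or without replicate 2 of 24 h (0.0824, 0.15 and 0.058), and UTP14A without replicate 1 of 24 h (0.0747). With the GC trend removed NOP58 (0.878), WDR12 (0.9997), WDR75 (0.222), HEATR1 (0.0951) and NOLC1 (0.0646) were not called.

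**Figure D2:**
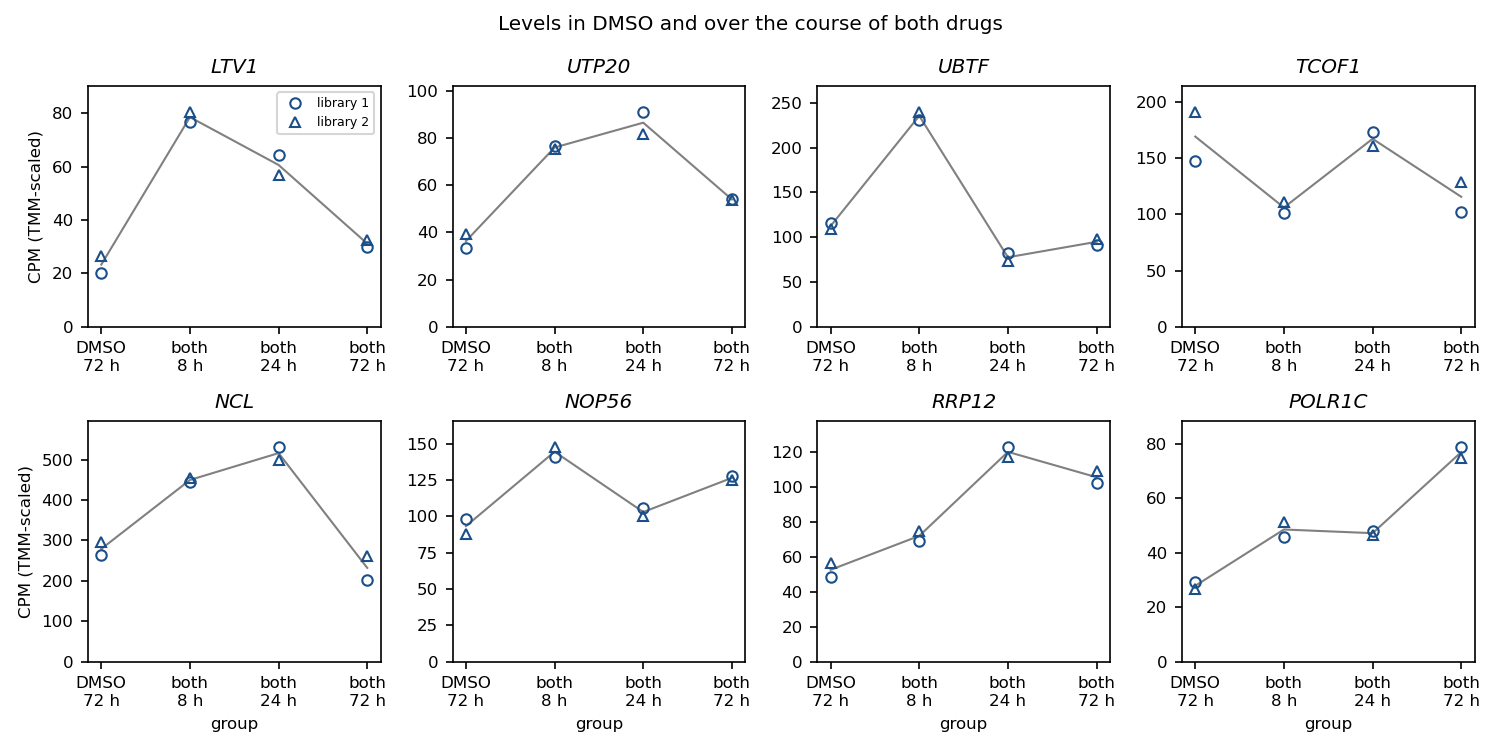
Level (CPM, vertical axis from 0) of 8 members in each library of DMSO at 72 h and of both drugs at 8, 24 and 72 h, with grey lines through the group means. UBTF peaks at 8 h with 231 and 240 CPM, NCL at 24 h with 532 and 500 CPM, and POLR1C at 72 h with 78.9 and 74.9 CPM.

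Between 8 h and 24 h the polymerase I genes UBTF, POLR1A and POLR1B fell and RRP12 and TCOF1 rose. Compared with 8 h, 2 of 34 members were higher at 24 h and 8 lower, against 18.4% and 17.4% of all genes, with a median log2 difference of -0.21. With library totals in place of TMM scaling the split was 2 higher and 19 lower. UBTF had 82.0 and 73.3 CPM at 24 h, against 231 and 240 CPM at 8 h (-1.60 ± 0.11, edgeR adjusted p = 6.98e-08), the largest change of any member in any drug comparison apart from the rise of LTV1 at 8 h. POLR1A had 125 and 119 CPM at 24 h, against 211 and 210 CPM at 8 h (-0.79 ± 0.13, 0.000166). TCOF1 went the other way, with 173 and 161 CPM at 24 h against 101 and 111 CPM at 8 h (0.66 ± 0.14, 0.00177).

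POLR1B was also lower at 24 h than at 8 h (-0.54 ± 0.12, edgeR adjusted p = 0.00200). RRP12, with 123 and 117 CPM against 69.3 and 74.6 CPM, was the other member to rise (0.73 ± 0.14, 0.000554). UTP15 (-0.66 ± 0.15, 0.00285), UTP14A (-0.48 ± 0.14, 0.0126), LTV1, NOP56 (-0.48 ± 0.13, 0.00749) and PES1 (-0.49 ± 0.15, 0.0212) were lower at 24 h. UBTF, POLR1A, POLR1B, TCOF1, RRP12 and UTP15 kept their calls with any library left out. LTV1 (-0.37 ± 0.14, 0.0449) was not called without any 1 of the 4 libraries (0.0859 and 0.281 without replicates 1 and 2 of 24 h, 0.106 and 0.217 without those of 8 h) or with DESeq2 (0.0566). PES1 was not called without either library of 24 h (0.0946 and 0.109) or replicate 2 of 8 h (0.16), UTP14A not without replicate 2 of 24 h (0.177) or either library of 8 h (0.0677 and 0.0751), and NOP56 not without replicate 2 of 24 h (0.0803) or of 8 h (0.0712). Without either of these last libraries 6 of 10 members were called.

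By 72 h of both drugs the members had spread in both directions around DMSO. Of 34 members 6 rose and 8 fell, close to the 19.2% of all genes higher and 17.3% lower, with a median log2 difference of 0.15. POLR1C (ENSG00000171453) had 78.9 and 74.9 CPM at 72 h, against 29.1 and 26.6 CPM in DMSO, a 2.76-fold rise (1.46 ± 0.13, edgeR adjusted p = 5.10e-07). RRN3 was at 0.71 ± 0.16 (0.00239), RRP12 at 1.01 ± 0.14 (3.40e-05) and UTP20 at 0.57 ± 0.15 (0.00870). NOP56 (0.44 ± 0.13, 0.0135) and LTV1 (0.42 ± 0.14, 0.0322) completed the rises. NOP14, a processome protein, had 58.9 and 58.5 CPM, against 97.1 and 105 CPM in DMSO (-0.79 ± 0.12, 7.19e-05).

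The other falls at 72 h were those of DKC1 (141 and 156 CPM, against 207 and 232 CPM, log2 -0.57 ± 0.11, edgeR adjusted p = 0.000841), HEATR1 (-0.48 ± 0.11, 0.00265), TCOF1 (-0.55 ± 0.14, 0.00604), LAS1L (-0.44 ± 0.12, 0.0108), an endonuclease factor of the large subunit, POLR1A (-0.39 ± 0.13, 0.0238), FBL (-0.39 ± 0.13, 0.0249) and NOLC1 (-0.46 ± 0.15, 0.0267). POLR1C, RRP12, NOP14, DKC1 and HEATR1 kept their calls with any library left out, and 9 of 14 did not. Without DMSO replicate 1 those lost were LTV1 (0.253) and UTP20 (0.0693). Without DMSO replicate 2 they were FBL (0.154), NOLC1 (0.226), NOP56 (0.0699), POLR1A (0.136) and TCOF1 (0.0611). Without replicate 1 of 72 h they were FBL (0.146), LAS1L (0.124), LTV1 (0.0683), NOLC1 (0.243), NOP56 (0.0731), POLR1A (0.141), RRN3 (0.0531) and TCOF1 (0.11), which left 7 calls. Without replicate 2 of 72 h they were FBL (0.0747), LTV1 (0.161) and POLR1A (0.0732).

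Set against 24 h, the 72 h libraries were lower in most members. Of 34 members 4 were higher and 16 lower, against 24.1% and 21.8% of all genes, with a median log2 difference of -0.32 against 0.07 over all genes. NCL had 203 and 261 CPM at 72 h, against 532 and 500 CPM at 24 h (-1.15 ± 0.13, edgeR adjusted p = 4.45e-06), and NOLC1 104 and 128 CPM, against 220 and 205 CPM (-0.87 ± 0.15, 0.000223). HEATR1, a processome protein that binds the transcribed precursor, had 175 and 186 CPM, against 369 and 346 CPM (-0.99 ± 0.11, 3.63e-06). LTV1 (-0.96 ± 0.14, 5.25e-05) and NOP14 (-0.79 ± 0.12, 4.89e-05) were lower too, as was DKC1 (-0.63 ± 0.11, 0.000237). POLR1C rose further (0.70 ± 0.13, 0.000304).

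Among large subunit factors WDR12 (log2 -0.55 ± 0.12, edgeR adjusted p = 0.00129), GNL3 (-0.63 ± 0.14, 0.00130) and NIP7 (-0.63 ± 0.15, 0.00226) were lower at 72 h than at 24 h, and so was LAS1L. TCOF1 was at -0.53 ± 0.14 (0.00567) and UBTF at 0.29 ± 0.11 (0.0433). DESeq2 did not call UBTF there (DESeq2 adjusted p = 0.0795). UTP14A, UTP20, WDR43, WDR75 and UTP15 fell by 0.39 to 0.79, and RRP9 and PPAN rose. PPAN is uncertain at 1.56 to 4.88 CPM in all 12 drug libraries, since it shares reads with the read-through gene PPAN-P2RY11. Of the 20 calls 13 stood with any library left out, and 13 to 16 were called when 1 was. Those lost were PPAN, RRP9, TCOF1, UBTF, UTP15, WDR43 and WDR75 without replicate 1 of 24 h (0.13, 0.0704, 0.0512, 0.0785, 0.102, 0.0527 and 0.083), PPAN, RRP9, UBTF and UTP15 without replicate 2 of 24 h (0.0822, 0.115, 0.327 and 0.0915), RRP9, TCOF1, UBTF, WDR43 and WDR75 without replicate 1 of 72 h (0.0672, 0.103, 0.0763, 0.078 and 0.0988), and PPAN, RRP9, UBTF and UTP15 without replicate 2 of 72 h (0.386, 0.0921, 0.258 and 0.166). With the GC trend removed 9 calls were lost, among them GNL3 (0.221), UTP20 (0.14) and WDR12 (0.578), and UTP15, WDR75 and RRP9 turned in sign without a call.

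Over the 4 groups of the course, 19 members had their highest mean at 8 h, 8 at 24 h, 5 at 72 h and 2 in DMSO, while 17 were lowest in DMSO and 11 at 72 h. Summed over the 34 members, the libraries held 2719 and 3065 CPM in DMSO, 3976 and 4109 CPM at 8 h, 3895 and 3659 CPM at 24 h, and 2665 and 2788 CPM at 72 h. These orders are descriptions of n = 2 libraries a group.

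GSK343 alone left the set near DMSO. Of 34 members 0 rose and 1 fell by edgeR at 72 h, against 9.12% of all genes higher and 3.31% lower, and 6 had an unadjusted p under 0.05. DESeq2 also called 0 rises and 1 fall. The median log2 difference was -0.09, with a range of -0.49 to 0.61. NOLC1 had 111 and 116 CPM with GSK343, against 138 and 180 CPM in DMSO (-0.49 ± 0.15, adjusted p = 0.0450). Its call was lost without DMSO replicate 2 (0.345), GSK343 replicate 1 (0.184) or GSK343 replicate 2 (0.134), and without DMSO replicate 1 TCOF1 (-0.60, 0.00562) and NOP2 (-0.50, 0.0314) were called too. Without DMSO replicate 2 LTV1 was the member called, as a rise (0.54, 0.0463). With library totals the split was 2 rises (RRP12 and LTV1) and 0 falls.

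X5050 alone raised members of the set in the fit, but the 2 X5050 libraries stood apart. Of 34 members 11 rose and 1 fell, against 5.34% of all genes higher and 7.23% lower, with a median log2 difference of 0.26 against -0.03 over all genes. All 34 members were higher in X5050 replicate 1 than in replicate 2 (median log2 0.36), while 87 of 90 other ribosome biogenesis factors and 48.5% of all genes were. The summed K562 erythroid markers moved with this, at 5910 and 2930 CPM, as did the transferrin receptor gene TFRC with 1440 and 624 CPM, and their part in the result was not tested. The median of the members was 0.07 without X5050 replicate 1 and 0.51 without replicate 2. A fit of these 2 groups alone called 1 rise and 0 falls among members, and 617 of all genes, 290 of them higher.

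LTV1 was the member whose rise stood with any library left out. It had 44.2 and 35.1 CPM with X5050, against 20.2 and 26.4 CPM in DMSO (log2 0.77 ± 0.14, edgeR adjusted p = 0.00293). POLR1C had 47.2 and 39.7 CPM, against 29.1 and 26.6 CPM (0.64 ± 0.13, 0.00481), POLR1B 98.1 and 80.0 CPM, against 59.0 and 68.9 CPM (0.48 ± 0.12, 0.0153), and RRN3 65.4 and 56.8 CPM, against 34.9 and 49.9 CPM (0.53 ± 0.16, 0.0390). RRP12 was at 0.64 ± 0.14 (0.00671) and UTP20 at 0.71 ± 0.15 (0.00732), and UTP15, WDR75, RRP9, WDR12 (0.41 ± 0.12, 0.0330) and NIP7 (0.47 ± 0.15, 0.0453) also rose. NOP14 fell (-0.47 ± 0.12, 0.0146). Without X5050 replicate 1 the values were 0.053 for POLR1C, 0.15 for POLR1B, 0.22 for RRN3, 0.0982 for RRP12, 0.108 for UTP20, 0.106 for UTP15, 0.127 for WDR75, 0.538 for RRP9, 0.271 for WDR12 and 0.46 for NIP7. Without DMSO replicate 1 POLR1B (0.0599), RRN3 (0.2), RRP9 (0.171), WDR12 (0.105) and NIP7 (0.169) were lost, without DMSO replicate 2 RRP9 (0.0649), and without X5050 replicate 2 NOP14 (0.194).

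Both drugs at 72 h were also set against each single drug. Against GSK343, 8 of 34 members were higher and 3 lower, against 18.9% and 20.5% of all genes (median log2 0.09). With library totals, which moved the median of all genes to -0.12, the split was 7 higher and 9 lower. POLR1C had 78.9 and 74.9 CPM with both drugs, against 32.5 and 26.8 CPM with GSK343 (1.38 ± 0.13, edgeR adjusted p = 1.06e-06). RRN3 (0.82 ± 0.16, 0.000741), RRP12 (0.69 ± 0.14, 0.000870), UTP20 (0.66 ± 0.15, 0.00315) and NOP2 (0.71 ± 0.15, 0.00139) were higher, and NOP14 lower (-0.54 ± 0.12, 0.00161), each with any library left out. NOP16 (0.55 ± 0.17, 0.0184), GNL3 (0.41 ± 0.14, 0.0237), NOP56 (0.35 ± 0.13, 0.0362), DKC1 (-0.38 ± 0.11, 0.0117) and HEATR1 lost their calls without single libraries. Without replicate 1 of both drugs NOP16 (0.0668), NOP56 (0.137), DKC1 (0.119) and HEATR1 (0.117) were lost, which left 7 calls. Without its replicate 2 NOP16 (0.0696), GNL3 (0.133), NOP56 (0.0841) and HEATR1 (0.061) were lost. Without GSK343 replicate 1 all 5 were lost (0.108, 0.172, 0.0982, 0.0762 and 0.119, in the order named), and without its replicate 2 NOP16 (0.0685), GNL3 (0.0566) and NOP56 (0.191).

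Against X5050, 3 of 34 members were higher with both drugs and 10 lower, against 17.5% and 12.8% of all genes (median log2 -0.25). The split was 1 and 16 with library totals and 1 and 13 with RLE size factors. LAS1L had 48.7 and 55.6 CPM with both drugs, against 96.9 and 78.8 CPM with X5050 (-0.75 ± 0.12, edgeR adjusted p = 0.000292). HEATR1 (-0.66 ± 0.11, 0.000274), WDR12 (-0.64 ± 0.12, 0.000787), POLR1A (-0.61 ± 0.13, 0.00158) and DKC1 (-0.58 ± 0.11, 0.000930) were lower and POLR1C was higher (0.82 ± 0.13, 0.000177), each with any library left out. NOLC1 (-0.63 ± 0.15, 0.00506), TCOF1 (-0.55 ± 0.14, 0.00756), NOP14, POLR1B and UBTF were lower, and NOP56 (0.36 ± 0.13, 0.0439) and RRP12 (0.37 ± 0.14, 0.0495) higher, with calls that rest on single libraries. NOP56 and RRP12 were also not called with DESeq2 (DESeq2 adjusted p = 0.102 and 0.115) or with RLE size factors (edgeR adjusted p = 0.0896 and 0.0981). Those lost were NOLC1, TCOF1, NOP14, POLR1B, UBTF, NOP56 and RRP12 without replicate 1 of both drugs (0.0825, 0.126, 0.162, 0.158, 0.228, 0.17 and 0.112), which left 6 calls. Without its replicate 2 they were NOP14, POLR1B, UBTF, NOP56 and RRP12 (0.16, 0.125, 0.0819, 0.127 and 0.221). Without X5050 replicate 1 they were NOLC1, NOP14, POLR1B and UBTF (0.0505, 0.228, 0.201 and 0.161). Without X5050 replicate 2 they were NOP56 and RRP12 (log2 0.07 for each). The median was 0.00 without X5050 replicate 1 and -0.54 without its replicate 2.

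The interaction tests whether both drugs at 72 h differ from the sum of the single drugs. It was positive for 1 of 34 members and negative for 5, against 9.75% and 9.04% of all genes. With library totals, which moved the median of all genes to -0.20, the split was 0 and 13. POLR1C was above the sum (log2 0.73 ± 0.18, edgeR adjusted p = 0.0110), and WDR12 (-0.59 ± 0.17, 0.0222), HEATR1 (-0.54 ± 0.15, 0.0215), LAS1L (-0.59 ± 0.17, 0.0272), LTV1 (-0.68 ± 0.20, 0.0280) and POLR1A (-0.52 ± 0.18, 0.0498) were below it. None of the 6 calls stood with every library left out in turn, and 1 to 10 members were called when 1 was. POLR1C was lost without GSK343 replicate 2 (0.0901) or X5050 replicate 2 (0.0656), and all 5 negative calls were lost without X5050 replicate 1 (0.078 for WDR12, 0.0635 for HEATR1, 0.0894 for LAS1L, 0.0998 for LTV1 and 0.157 for POLR1A) or without replicate 1 of both drugs (0.0757, 0.0891, 0.124, 0.104 and 0.153). Without replicate 2 of both drugs WDR12 (0.0668), HEATR1 (0.0508), LTV1 (0.0582) and POLR1A (0.1) were lost. Without GSK343 replicate 1 they were HEATR1 (0.0678), LAS1L (0.0849) and POLR1A (0.139), without its replicate 2 WDR12 (0.0585), LTV1 (0.0692) and POLR1A (0.051), and without DMSO replicate 1 LTV1 (0.0637) and POLR1A (0.0912).

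**Figure D3:**
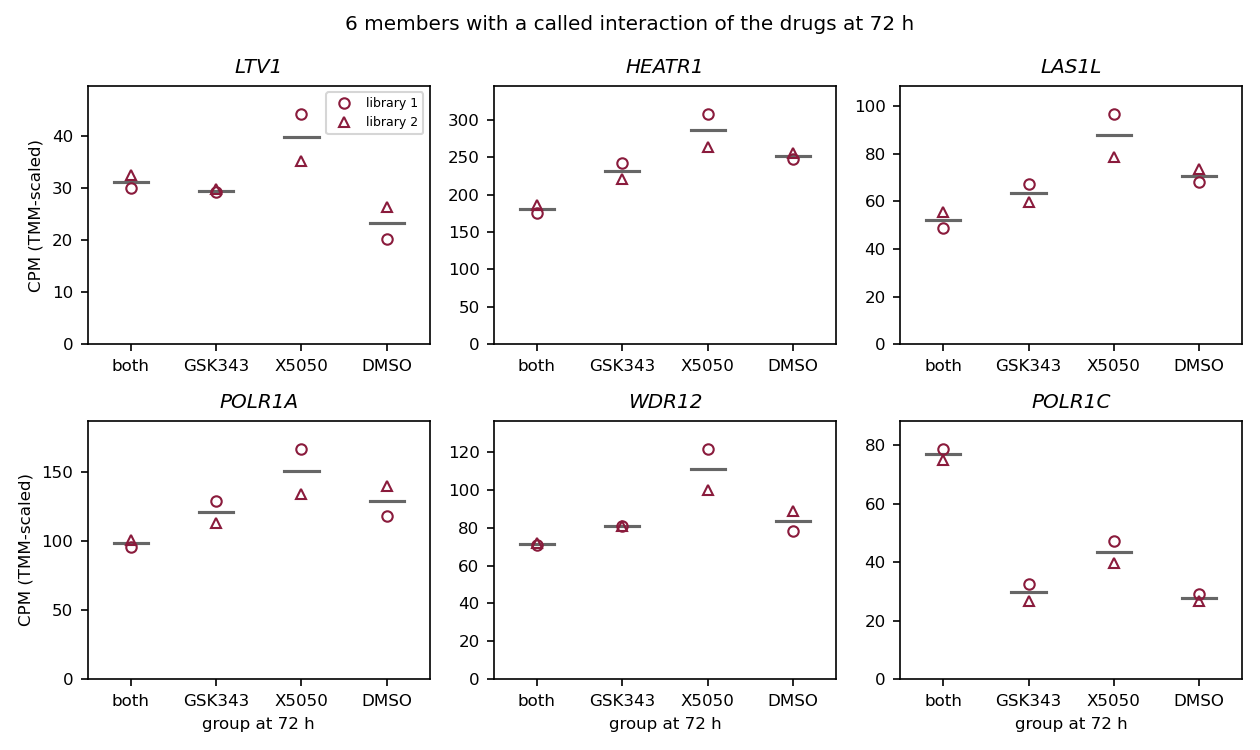
Level (CPM, vertical axis from 0) in each library at 72 h of the 6 members with a called interaction, for both drugs, GSK343, X5050 and DMSO, with grey bars at the group means. POLR1C is highest with both drugs (78.9 and 74.9 CPM), and the X5050 libraries of the other 5 differ, as for LAS1L with 96.9 and 78.8 CPM.

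Other ribosome biogenesis factors, a list of 91 genes outside the set of which 90 were tested, was followed beside the set. At 8 h against DMSO 43 rose and 11 fell (median log2 0.31), or 47.8% and 12.2%, against 21.8% and 21.2% of all genes. At 24 h against DMSO 47 rose and 12 fell (0.36), or 52.2% and 13.3%, against 22% and 21.1%. At 72 h against DMSO 11 rose and 16 fell (-0.05). These 12.2% and 17.8% lay under and near the 19.2% and 17.3% of all genes. From 24 h to 72 h 13 were higher and 46 lower (14.4% and 51.1%), against 24.1% and 21.8% of all genes. MPHOSPH10, a processome protein, had 65.1 and 61.4 CPM at 8 h, against 20.2 and 22.2 CPM in DMSO (1.58 ± 0.12, edgeR adjusted p = 2.94e-07), and SDAD1 (1.45 ± 0.12, 5.26e-07) and MAK16 (1.13 ± 0.11, 1.72e-06), which act on the large subunit, rose with it. At 24 h MPHOSPH10, TAF1D, a polymerase I initiation factor, and UTP11 led (1.36, 1.14 and 0.87). At 72 h against 24 h DDX21, a nucleolar helicase, had 530 and 583 CPM against 1180 and 1130 CPM (-1.06 ± 0.11, 1.74e-06). At 72 h against DMSO the lowest p were those of RSL24D1, NOB1 and POLR1E, which fell by 0.86, 0.68 and 0.67 on the log2 scale.

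In the remaining comparisons of the same 90 genes, 11 were higher and 27 lower at 24 h than at 8 h, with TAF1D at 1.14, SDAD1 at -0.80 and NOL9 at -0.66. GSK343 alone gave 1 rise (SDAD1, 0.47) and 1 fall (RCL1, -0.52), where 9.12% of all genes were higher and 3.31% lower. X5050 alone gave 10 rises and 6 falls, among them NOB1 (-0.69), POLR1D (-0.70) and MAK16 (0.55). These were 11.1% and 6.67%, against 5.34% and 7.23% of all genes. Both drugs at 72 h gave 17 higher and 13 lower against GSK343, with RSL24D1 at -0.87, TAF1D at 1.02 and POLR1E at -0.71. These 18.9% and 14.4% lay near or under the 18.9% and 20.5% of all genes. Against X5050 they gave 7 higher and 20 lower, with NAT10 at -0.87, MAK16 at -0.73 and DIMT1 at -0.67. These were 7.78% and 22.2%, against 17.5% and 12.8% of all genes. The interaction was positive for 6 and negative for 7, with MAK16 at -1.05, SDAD1 at -1.02 and TAF1D at 1.05. These 6.67% and 7.78% lay under the 9.75% and 9.04% of all genes.

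The genes of the ribosome's own proteins were taken as a further list. Of 78 cytosolic ribosomal protein genes 4 rose and 22 fell at 8 h against DMSO (median log2 -0.08). These were 5.13% and 28.2%, against 21.8% and 21.2% of all genes. At 24 h against DMSO 19 rose and 12 fell (0.10), or 24.4% and 15.4%, against 22% and 21.1%. At 72 h against DMSO 3 rose and 3 fell (-0.04), or 3.85% each, against 19.2% and 17.3%. With X5050 alone 0 rose and 64 fell (-0.54), where 11 of 34 biogenesis factors rose and 1 fell. Of all genes 5.34% were higher and 7.23% lower there. The median of the 34 biogenesis factors, 0.26, was 0.07 without X5050 replicate 1. Summed ribosomal protein genes held 41950 and 42260 CPM with X5050, against 55800 and 66010 CPM in DMSO. Against X5050, both drugs at 72 h had 64 of 78 ribosomal protein genes higher and 0 lower, where 3 of 34 biogenesis factors were higher and 10 lower. In that comparison 17.5% of all genes were higher and 12.8% lower. MYC had 211 and 198 CPM at 8 h, against 209 and 176 CPM in DMSO (0.09 ± 0.17, edgeR adjusted p = 0.705), and 456 and 404 CPM at 24 h (1.16 ± 0.17, 7.16e-05 against DMSO, and 1.07 ± 0.17, 0.000205 against 8 h). MYC was lower at 72 h than at 24 h (-0.88 ± 0.17, 0.000621) and higher with both drugs than with GSK343 at 72 h (0.49 ± 0.17, 0.0310). It was not called with GSK343 (-0.21), with X5050 (0.29), with both drugs at 72 h against DMSO (0.28) or X5050 (-0.01), or in the interaction (0.21).

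**Figure D4:**
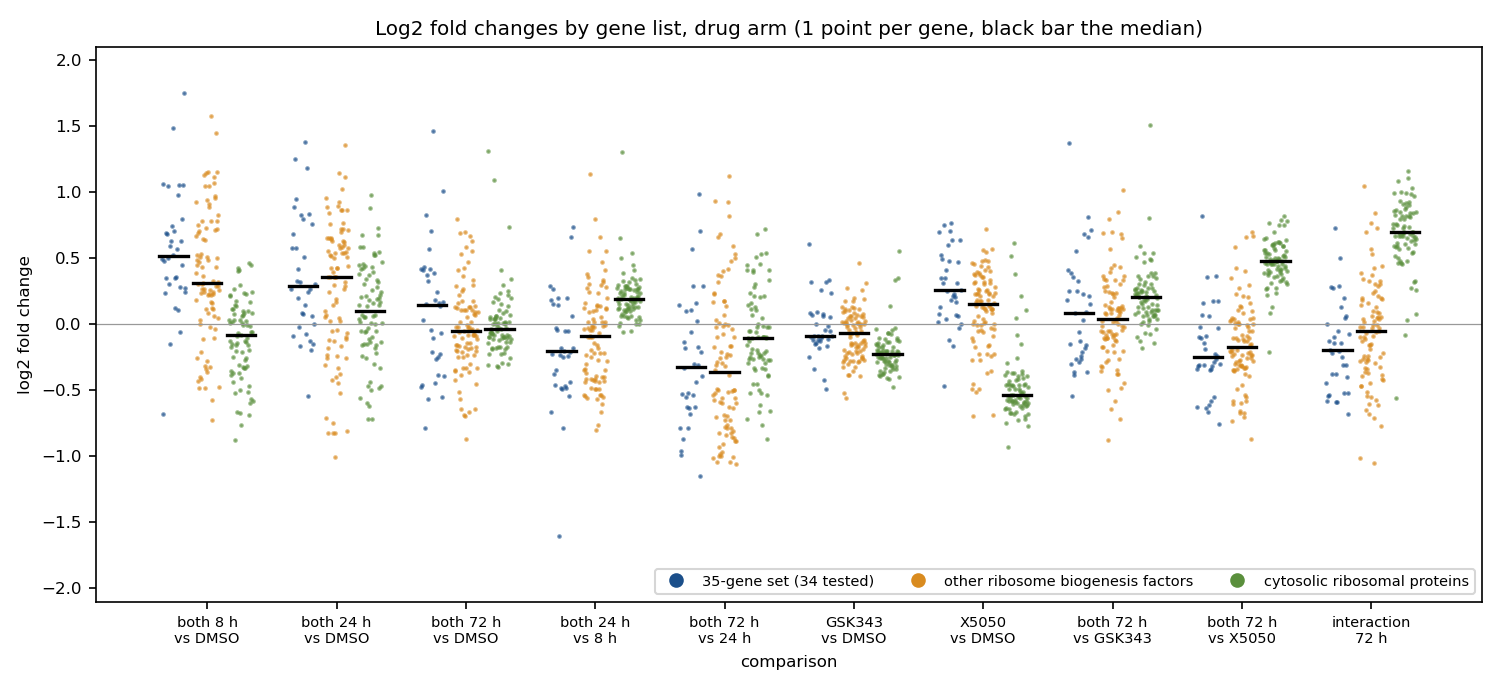
Log2 fold changes (vertical axis) of single genes in 10 drug comparisons for the 34 members, 90 other ribosome biogenesis factors and 78 ribosomal protein genes, with a black bar at each median. The medians of the members are 0.51 at 8 h, 0.29 at 24 h and 0.15 at 72 h against DMSO, and that of the ribosomal proteins is -0.54 with X5050.

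In the excision experiment the libraries of S1KO, S2KO and EV stood apart within each group. All 35 members were higher in replicate 1 than in replicate 2 of S1KO (median log2 0.67), of S2KO (0.93) and of EV (1.00), while 4 of 35 were in DKO (-0.11). The split was not confined to the set: of 90 other ribosome biogenesis factors 94.4%, 93.3% and 92.2% were higher in replicate 1 of S1KO, S2KO and EV, while of all genes 47.0%, 46.1% and 48.5% were. Summed over the 35 members the 2 libraries held 5747 and 3693 CPM in S1KO, 6192 and 3274 CPM in S2KO, 5912 and 6307 CPM in DKO, and 5990 and 3095 CPM in EV. The erythroid markers split the same way, with 16500 and 9210 CPM in S1KO, 12700 and 5870 CPM in S2KO, 16900 and 19700 CPM in DKO, and 6240 and 2700 CPM in EV. The ribosomal proteins did not, with medians of -0.01 in S1KO, -0.24 in S2KO, -0.04 in DKO and -0.29 in EV for replicate 1 minus replicate 2. Summed fibroblast markers were at 129 and 107 CPM in DKO, where COL1A2 made up nearly all of them, 9.18 and 8.03 CPM in S1KO, 1.58 and 1.2 CPM in S2KO, and 1.59 and 1.5 CPM in EV. The part of these markers in the values below was not tested, and each median below is given with and without single libraries.

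**Figure D5:**
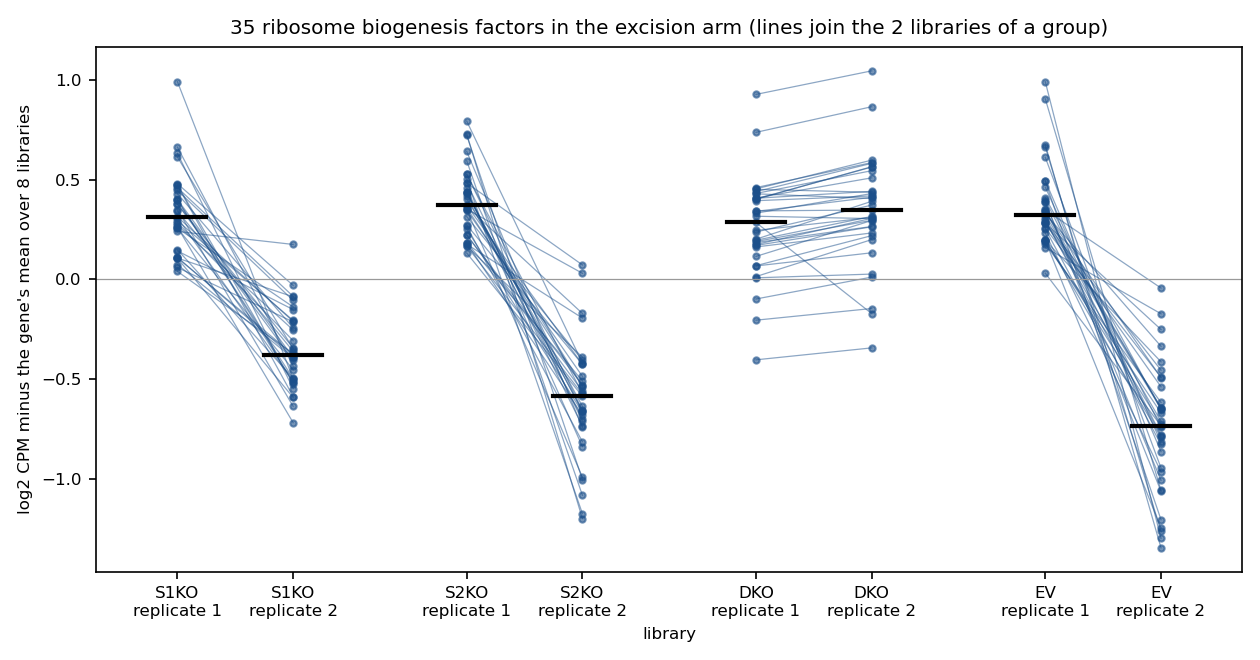
Log2 CPM of each of the 35 members, minus its own mean over 8 libraries (vertical axis), in the S1KO, S2KO, DKO and EV libraries, with lines that join the 2 libraries of a group and black bars at the medians. Replicate 2 lies below replicate 1 in S1KO, S2KO and EV (EV medians 0.33 and -0.73), and both DKO libraries lie near replicate 1 of the other groups (0.29 and 0.35).

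In the fit without a replicate block no member was called in any excision comparison. On simulated counts for DKO against EV this fit recovered 0 of 100 genes changed by log2 1.0. Fewer genes were changed there than were called in the data, which makes the adjustment stricter. The absence of calls still does not show that the members were unchanged. In DKO 0 of 35 members rose and 0 fell by edgeR against EV, where 5.41% of all genes were higher and 3.35% lower, and 0 had an unadjusted p under 0.05. DESeq2 called 0, with 2 at an unadjusted p under 0.05. The median log2 difference was 0.39 (-0.36 to 1.34 over members), but 1.06 without EV replicate 1 and -0.01 without EV replicate 2. In S1KO 0 rose and 0 fell against EV, where 2.44% of all genes were higher and 1.23% lower, and by edgeR and DESeq2 0 had an unadjusted p under 0.05. Its median was 0.14, or 0.75 without EV replicate 1 and -0.32 without EV replicate 2, and -0.31 without S1KO replicate 1 and 0.45 without S1KO replicate 2. In S2KO 0 rose and 0 fell against EV, where 1.45% of all genes were higher and 0.554% lower, with 0 at an unadjusted p under 0.05 by either tool and a median of 0.08, or 0.67 and -0.33 without EV replicates 1 and 2, and -0.56 and 0.47 without S2KO replicates 1 and 2.

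The largest DKO differences were those of RRS1, a large subunit assembly factor, and NCL. RRS1 had 51.5 and 55.9 CPM in DKO, against 31.0 and 11.4 CPM in EV (log2 1.34 ± 0.61, edgeR adjusted p = 0.246). NCL had 933 and 1020 CPM in DKO, against 667 and 315 CPM in EV (0.99 ± 0.48, 0.266). UBTF had 174 and 192 CPM, against 146 and 80.6 CPM (0.70 ± 0.33, 0.260). FBL had 169 and 176 CPM in DKO against 248 and 189 CPM in EV (-0.34 ± 0.23, 0.424). In 13 of 35 members both DKO libraries lay on the same side of both EV libraries. The share of all genes that did so was not counted, so this number does not show a change of the set. MYC was not called either (-0.35 in S1KO, 0.06 in S2KO and -0.18 in DKO). Of the other 90 biogenesis factors edgeR called 0 in S1KO, S2KO and DKO, with 1, 0 and 5 at an unadjusted p under 0.05, and DESeq2 called 0, 0 and 1. Of 79 ribosomal proteins edgeR called 0 in S1KO, 0 in S2KO and 3 in DKO, with 8, 1 and 33 at an unadjusted p under 0.05. Those 3 were all lower (3.8%), where 3.35% of all genes were. DESeq2 called 3, 1 and 13 ribosomal proteins, and 1815, 1140 and 3388 of all genes.

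Levels can be compared between genes on the per-length TPM scale that was deposited for the excision libraries. FBL averaged 170 TPM in DKO and 202 TPM in EV, NCL 374 and 188 TPM, and NOP56 251 and 175 TPM. UTP20 was near the bottom with 9.94 TPM in DKO and 6.39 TPM in EV. RRS1 averaged 25.3 and 9.07 TPM, NOP16 9.01 and 7.86 TPM, and BOP1 2.02 and 1.99 TPM in DKO and EV. The levels of BOP1, NOP16 and NOP56 are uncertain, since 52.5% to 100% of the estimated counts of BOP1, 69.7% to 81.1% of those of NOP16 and 42.5% to 63.4% of those of NOP56 lay on transcripts that GENCODE 29 does not annotate as protein coding.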

How the data were processed

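RNA-seq libraries of K562 cells were analysed from the deposited tables. For the drug experiment the authors deposited raw counts per gene, made with STAR 2.7.3a per the submitters' processing notes, and the stranded column that held most reads was used. For the excision experiment the authors deposited estimated counts, TPM values and transcript lengths per transcript, from kallisto 0.44.0 per the submitters' processing notes, which also name Trimmomatic 0.38 and hg19. The annotation release is not given in the sources used here. These estimates were added up by gene and rounded to whole numbers, for the 182238 of 215170 transcripts (84.7%) whose identifiers matched GENCODE 29, which also gave gene names and GC content. Rows that name no gene were left out.

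Genes passing filterByExpr were fitted per experiment, 1 mean per group, with edgeR 4.0.16 (R 4.3.3, TMM, robust quasi-likelihood, Benjamini-Hochberg over all genes, threshold 0.05). The biological coefficient of variation was 0.129 (drugs) and 0.323 (excisions). DESeq2 1.42.0, other scalings, no filter, GC correction, unstranded counts, counts from length-scaled TPM, a replicate block and leaving out single libraries were tried. The procedure was tested on simulated counts with known changes. For 24 h against DMSO it recovered 80 of 100 genes changed by log2 1.0 and 10 of 100 changed by 0.5. For DKO against EV it recovered 0 of 100 at either size. Each simulation changed 100 genes of each size, while 8277 (24 h) and 1866 (DKO) genes were called in the data. With fewer changed genes the adjustment is stricter, so these rates do not give the recovery in the real comparisons. No 2 libraries of a group agreed within sampling noise. All members are named, and per comparison and role full statistics went to up to 3 called members with the lowest p. Of the list of other factors up to 3 called genes per comparison were named. The members and lists were chosen with earlier results of these data known. Counts limit the precision, and PCR copies were not removed by molecular identifiers.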

Additional observations from a re-analysis of the deposited data

Results flagged for a closer look

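For 6 of 34 members the effect of X5050 at 72 h differed between cells with and without GSK343, by the edgeR interaction test across all genes. The interaction was positive for 2.94% of members and negative for 14.7%, against 9.75% and 9.04% of all genes. Calls of this test were therefore not particular to the set. POLR1C had an interaction of 0.73 on the log2 scale, from 1.38 on GSK343 and 0.64 alone. LTV1 had -0.68, from 0.08 and 0.77, and WDR12 -0.59, from -0.18 and 0.41. LAS1L had -0.59, from -0.28 and 0.31. HEATR1 had -0.54, from -0.36 and 0.19. POLR1A had -0.52, from -0.30 and 0.23. The effects named first are those on GSK343. None of the 6 calls stood with every library left out in turn. X5050 replicate 1 was above replicate 2 in all 34 members. The median interaction of the members was -0.05 without replicate 1 and -0.43 without replicate 2.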

How the results depend on the processing

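The count of members called stayed within 1.5 times its main value under DESeq2 and RLE size factors in all comparisons. With library totals alone it was 21 against 10 for 24 h over 8 h, 13 against 6 for the interaction and 2 against 1 for GSK343. Calls over all genes were 7670 against 6880, 4392 against 3613 and 2419 against 2390 in the same order. With only the groups compared in the fit it was 27 for 24 h over 8 h, 1 for X5050 against 12, 1 for the interaction and 0 for GSK343. Over all genes these fits called 9623, 617, 2314 and 1118. GSK343 gave 2 calls with no filter, 2 with the replicate block and GC trend removed, and 0 with unstranded counts. The causes were not tested. Library totals moved the median of all genes to -0.19 for 24 h against DMSO, -0.22 for 24 h against 8 h, 0.22 for 72 h against 24 h and 0.13 for DKO.

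The log2 CPM difference between replicate 2 and replicate 1 of a group was correlated, across genes, with that of each other group. The correlations were -0.14 to 0.40 between drug groups and 0.67 to 0.81 among S1KO, S2KO and EV. With DKO they were -0.11 to -0.17. The labels tie no replicate number to a shared culture, batch or day, and each group has 2 numbers. The block therefore stayed an alternative, although the replicate differences run together in S1KO, S2KO and EV. With the replicate block S1KO and S2KO had 0 calls by edgeR, with 1 and 0 members at an unadjusted p under 0.05. DKO had 11 such members, a median of 0.54 and 2 calls, RRS1 (log2 1.57, edgeR adjusted p = 0.0324) and NCL (1.13, 0.0451), and 2 with the GC trend removed as well. Of the 21285 genes tested, the DKO comparison with the block called 3172, 1783 of them higher, with a median of 0.04. The 2 calls among 35 members were therefore not particular to the set. The block gives every group the same replicate shift, which DKO did not share, so the size of its DKO differences is uncertain. With 1 library left out the counts ranged from 18 to 23 at 8 h, 13 to 18 at 24 h and 7 to 13 at 72 h against DMSO. They ranged from 6 to 8 for 24 h against 8 h, 13 to 16 for 72 h against 24 h, 6 to 8 for both drugs against GSK343, 6 to 22 against X5050, 0 to 3 for GSK343, 2 to 19 for X5050 and 1 to 10 for the interaction, and were 0 in the 3 excision comparisons.

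Of 1143 values of single genes under other settings 1034 kept direction and call, 101 kept direction alone and 8 turned, and of 532 with a library left out the numbers were 381, 151 and 0. Those that turned did so with the GC trend removed, without and with the replicate block: WDR12 at 24 h against DMSO (-0.00019 and -0.0016), and at 72 h against 24 h RRP9 (-0.013 and -0.011), UTP15 (0.076 and 0.075) and WDR75 (0.155 and 0.156).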
